A study of Homo sapiens with 12 samples.

Results

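The 9 genes described here carry or curb signalling by transforming growth factor beta (TGF-beta) and activin. They are the ligand genes TGFB1, TGFB2 and INHBA, the receptor genes TGFBR1 and TGFBR2, the signal transducer SMAD3, the inhibitory SMADs SMAD6 and SMAD7, and TGFBI, a gene named for its induction by TGF-beta. They were picked by symbol, and all 9 were found among the 26115 symbols shared by a table of 30106 symbols for KYSE410 and a table of 30703 symbols for KYSE150. The study sequenced messenger RNA from KYSE410 and KYSE150, wild-type established lines of human esophageal squamous carcinoma, to profile their response to low oxygen. There were 4 groups of 3 libraries: KYSE410 hypoxia, KYSE410 normoxia, KYSE150 hypoxia and KYSE150 normoxia. Hypoxia was 0.5% oxygen with a labelled time point of 48 h, and normoxia was 21% oxygen with a labelled time point of 0. The design text gives 1 incubation time for both oxygen levels, so the time in culture of the normoxia libraries is not settled. No agent other than oxygen is named for any group, and each line stands for 1 tumour. The values are taken as FPKM, a unit inferred from the values themselves. It divides a gene's fragments by its length and by the size of the library. Comparisons between libraries still depend on their scaling.

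TGF-beta and activin ligands are secreted as dimers that bind a type II receptor kinase, which then switches on a type I receptor kinase. The type I receptor phosphorylates SMAD2 and SMAD3, which enter the nucleus with SMAD4 and change transcription, while SMAD6 and SMAD7 block the pathway at the receptor and are themselves induced by it. In squamous epithelium TGF-beta restrains proliferation, and in carcinomas it is also known for matrix production and loss of epithelial features.

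The oxygen labels matched the carbonic anhydrase gene CA9, a hypoxia marker, which averaged 54.7 ± 4.99 FPKM in KYSE410 hypoxia against 4.05 ± 0.354 FPKM in KYSE410 normoxia, and 76.8 ± 4.24 FPKM in KYSE150 hypoxia against 9.80 ± 0.292 FPKM in KYSE150 normoxia (SD, n = 3 each). Of 10 squamous and epithelial markers, 9 averaged 1 FPKM or more in KYSE410, all but SOX2. In KYSE150 only 4 did, KRT17, KRT8, KRT18 and EPCAM, while KRT5, KRT14, KRT6A, TP63, SOX2 and CDH1 stayed under 1 FPKM at both oxygen levels, so the squamous label of KYSE150 is not borne by its defining basal markers. The 7 fibroblast markers together summed to at most 0.761 FPKM in KYSE410 and at most 2.38 FPKM in KYSE150. Of 6 immune and endothelial markers only CD68 passed 1 FPKM. Same-group libraries correlated at r = 0.9786 or more on the log2 scale across genes, which are not independent replicates. KYSE150 normoxia replicate 2 stood apart, with an SD of log2 differences from its group of 0.339 and 0.369, against 0.153 to 0.197 for other same-group pairs. The KYSE410 libraries carry sample-sheet numbers 56 to 58 in hypoxia and 38 to 40 in normoxia, so in that line oxygen and library set cannot be told apart, whereas the KYSE150 libraries run from 50 to 55. In bulk RNA, fewer cells that express a gene and less of its RNA per cell cannot be told apart.

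In each line most of the genes tested differed between oxygen levels, at shares close to those of all genes. Only SMAD7 was called in opposite directions in the lines, and how often this held over all genes was not counted. In KYSE410, TGFB1, SMAD7 and TGFBI were higher in hypoxia and TGFB2, INHBA, TGFBR1 and TGFBR2 were lower. In KYSE150, TGFB1 and SMAD3 were higher and TGFB2, TGFBR2, SMAD6 and SMAD7 were lower. Differences were tested with limma on log2(FPKM + 1) over every gene averaging 1 FPKM or more, and called where the Benjamini-Hochberg adjusted p was under 0.05. All log2 differences below are hypoxia minus normoxia on that scale unless another contrast is named, and the scale shrinks the change of weakly expressed genes. In KYSE410, 7 of the 8 genes tested were called, against 83.1% of the 12054 genes tested. Of these, 3 were higher, against 31.2% of all genes, and 4 lower, against 51.9%. In KYSE150, 6 of 8 were called, against 62.3% of 12692 genes, with 2 higher, against 23.5%, and 4 lower, against 38.8%. The groups did not overlap for 7 of the 8 in KYSE410, where 84.6% of all genes tested had groups apart, and for 6 of the 8 in KYSE150, where 69.6% did. These shares lie near the background of each line. The median log2 difference over all genes tested was -0.21 in KYSE410 and -0.13 in KYSE150. Over the 8 genes tested it was -0.06 in KYSE410 and -0.07 in KYSE150. TGFBI in KYSE410 and TGFB2 in KYSE150 reached the filter through 1 oxygen level only and so had to differ. Without them 2 genes were higher and 4 lower of 7 in KYSE410 (median -0.21), and 2 higher and 3 lower of 7 in KYSE150 (median 0.15).

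**Figure D1:**
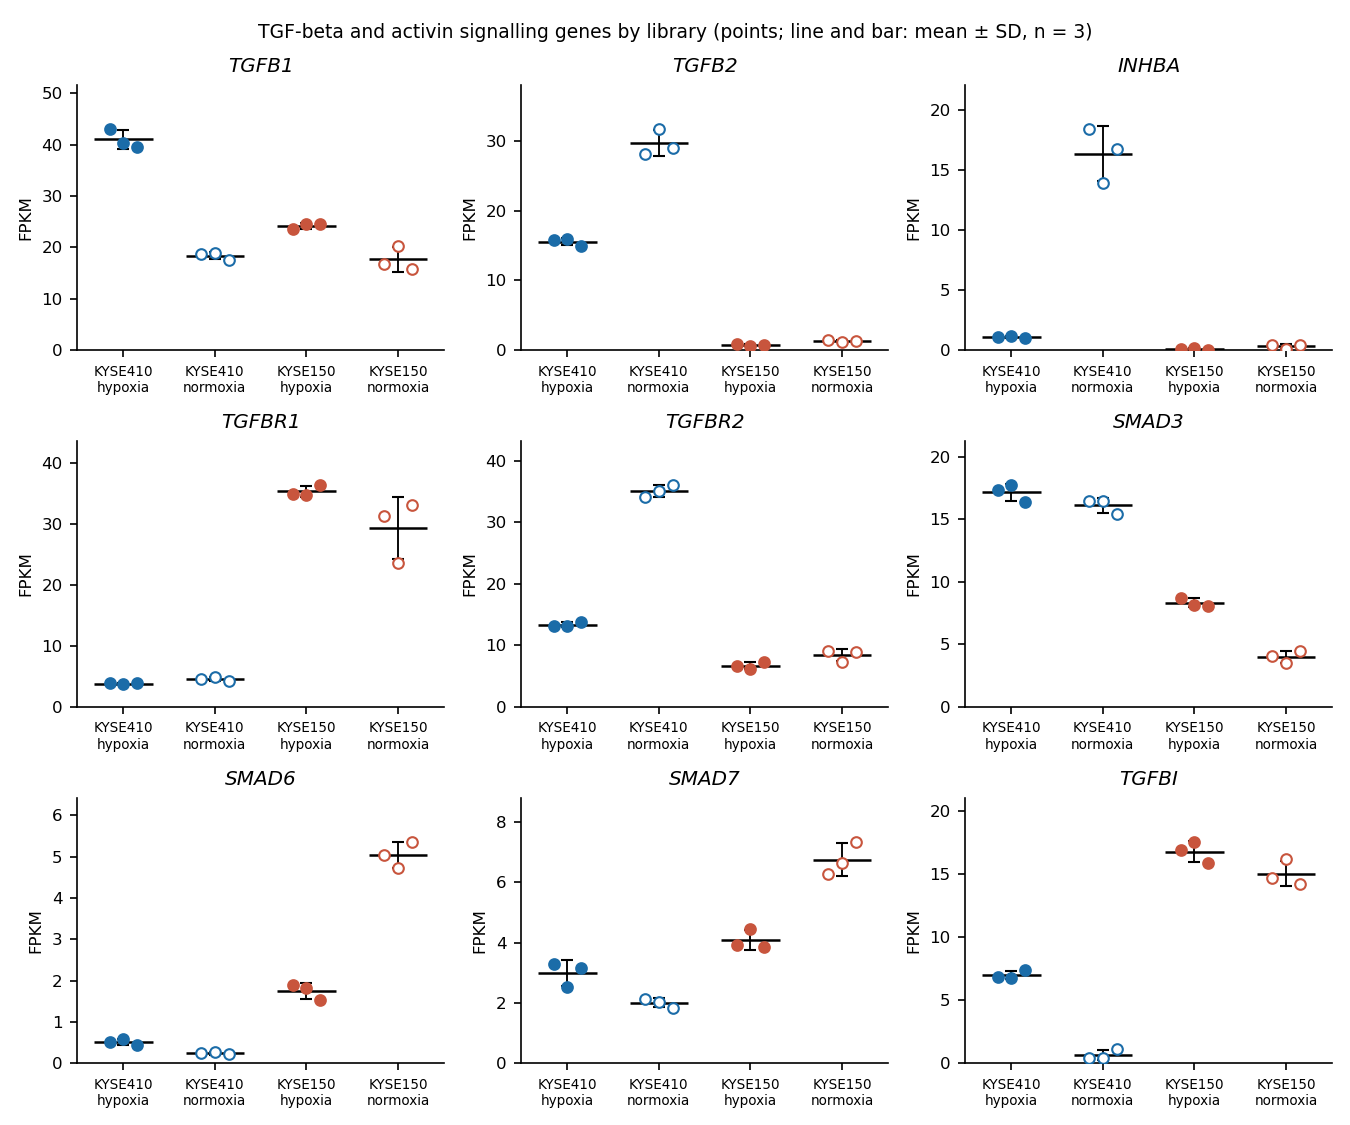
FPKM (y axis, from 0, a scale per gene) of the 9 genes in each library, by line and oxygen level on the x axis. Points are libraries, and the line and bar are the mean and SD of 3. INHBA in KYSE410 normoxia (13.9 to 18.5 FPKM) and TGFBI in KYSE410 hypoxia (6.76 to 7.41 FPKM) stand far from the other oxygen level of that line, and TGFB2 and TGFBR1 separate the lines.

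TGFB1 encodes the most widely expressed TGF-beta ligand, which is secreted in a latent complex with its own propeptide. It lies on the minus strand of chromosome 19, 41301587 to 41353911 in hg38 coordinates. It measured 43.1, 40.3 and 39.6 FPKM in the KYSE410 hypoxia libraries, against 18.7, 18.9 and 17.6 FPKM in KYSE410 normoxia. In KYSE150 it measured 23.5, 24.5 and 24.5 FPKM in hypoxia, against 16.8, 20.4 and 15.9 FPKM in normoxia. All hypoxia libraries of a line were above all its normoxia libraries, and normoxia replicate 2 was the highest of the KYSE150 normoxia libraries. The mean was 2.23 times as high in KYSE410 hypoxia as in normoxia (log2 difference 1.11 ± 0.05 SE, adjusted p = 9.13e-08) and 1.37 times as high in KYSE150 (0.44 ± 0.10, adjusted p = 0.00524). The response was 0.68 larger on the log2 scale in KYSE410 (interaction adjusted p = 0.00023), and 0.44 larger after rescaling to a common sum (adjusted p = 0.00104). TGFB1 shares 215 exonic bases, 6.64% of its exons, with HNRNPUL1 on the other strand. That gene was higher too, with log2 differences of 0.65 in KYSE410 and 0.39 in KYSE150, and the strand setting of the counting is not given in the sources used here, so the part of its reads in the TGFB1 values was not tested.

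TGFB2 encodes a second TGF-beta ligand, known for needing the coreceptor betaglycan, the product of TGFBR3, to bind the type II receptor well. The gene lies on the plus strand of chromosome 1, 218346235 to 218444619. It measured 15.9, 15.9 and 14.99 FPKM in KYSE410 hypoxia, against 28.2, 31.7 and 29.02 FPKM in KYSE410 normoxia. In KYSE150 it was at 0.847, 0.550 and 0.701 FPKM in hypoxia, against 1.48, 1.24 and 1.36 FPKM in normoxia. Every hypoxia library was below every normoxia library of its line, and KYSE150 passed the filter of 1 FPKM only through its normoxia libraries. The mean fell to 0.526 of its normoxia value in KYSE410 (log2 difference -0.88 ± 0.05, adjusted p = 6.95e-07) and to 0.515 in KYSE150 (-0.48 ± 0.10, adjusted p = 0.00435). With no filter, so that entry to the test did not depend on the normoxia level, the KYSE150 adjusted p was 0.0188. The difference in response between lines was -0.41 (adjusted p = 0.00610), and with a pseudocount of 0.1 it was -0.04 (adjusted p = 0.850). It was -0.27 after the median of ratios (adjusted p = 0.0430) and after quantile normalization (adjusted p = 0.0472). In KYSE150 the log2 difference was -0.88 with that pseudocount. The noncoding gene TGFB2-OT1 shares 1371 exonic bases with TGFB2 on the same strand, 26.62% of the TGFB2 exons. It averaged 0.038 FPKM in KYSE410 and 0.037 FPKM in KYSE150. How reads over the shared bases were assigned was not tested.

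INHBA encodes the beta A subunit, which forms activin A as a dimer. It lies on the minus strand of chromosome 7, 41667168 to 41705834. It fell to 1.09, 1.22 and 1.02 FPKM in KYSE410 hypoxia, against 18.5, 13.9 and 16.8 FPKM in KYSE410 normoxia, with no overlap. The mean was lower by 14.8 times (log2 difference -3.04 ± 0.10, adjusted p = 2.71e-08). In KYSE150 it was near 0 at both oxygen levels, at 0.0964, 0.170 and 0.0427 FPKM in hypoxia, against 0.4302, 0.0991 and 0.426 FPKM in normoxia. These ranges overlapped, the gene was under the filter, and without the filter the log2 difference was -0.25 ± 0.12 (adjusted p = 0.191). The lines differed in response by -2.79 ± 0.17, KYSE410 minus KYSE150 (adjusted p = 9.68e-08). INHBA entered that joint fit through its KYSE410 normoxia level, and with no filter the adjusted p was 2.31e-06. Within each library, the ratio of TGFB2 to TGFB1 FPKM was 0.380 ± 0.013 in KYSE410 hypoxia, against 1.61 ± 0.092 in KYSE410 normoxia (SD, n = 3 each). TGFB1 was thus the more abundant of the pair by FPKM in KYSE410 hypoxia and TGFB2 in KYSE410 normoxia. In KYSE150 the same ratio was 0.0290 ± 0.00681 in hypoxia, against 0.0781 ± 0.0149 in normoxia. Such ratios do not depend on how a library is scaled.

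The promoters of the TGF-beta ligand genes that moved the same way in both lines are shown as the 250 bases before the first RefSeq start (GRCh38.p14), 5′ to 3′ on the strand of the gene. The TGFB1 window is chr19:41353923-41354172, minus strand, and the TGFB2 window is chr1:218345086-218345335, plus strand. Capitals mark matches on either strand to the hypoxia response cores ACGTG and GCGTG, the SMAD palindrome GTCTAGAC, the SMAD core GTCTG and the SMAD GC site GGCGCC, and the AP-1 site TGAGTCA was searched as well.
TGFB1: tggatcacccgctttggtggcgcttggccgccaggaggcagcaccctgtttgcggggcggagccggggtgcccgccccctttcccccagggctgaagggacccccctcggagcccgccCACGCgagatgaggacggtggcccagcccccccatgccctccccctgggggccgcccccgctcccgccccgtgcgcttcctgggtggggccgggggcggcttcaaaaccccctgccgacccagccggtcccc
TGFB2: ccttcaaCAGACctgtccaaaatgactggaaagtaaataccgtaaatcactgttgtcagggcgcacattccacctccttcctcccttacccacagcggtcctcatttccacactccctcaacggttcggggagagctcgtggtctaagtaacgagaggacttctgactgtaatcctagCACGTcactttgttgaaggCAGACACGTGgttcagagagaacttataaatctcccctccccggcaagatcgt
The TGFB1 window holds GCGTG once, on the other strand, at position -132 from the start. The TGFB2 window holds ACGTG at -72, -49 and -48, where the last pair are the overlapping strands of CACGTG, and GTCTG on the other strand at -243 and at -53, next to and overlapping CACGTG. Over 27305 RefSeq windows of this length, 18.7% hold ACGTG, 31.9% GCGTG, 37.8% GTCTG, 16.1% GGCGCC, 4.16% TGAGTCA and 0.176% GTCTAGAC. No searched motif was found in the INHBA window, which lies inside the annotated span of that gene. A match describes letters, not binding.

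TGFBR1 encodes the type I receptor kinase of TGF-beta and lies on the plus strand of chromosome 9, 99104038 to 99154192. It measured 3.83, 3.68 and 3.90 FPKM in KYSE410 hypoxia, against 4.58, 4.88 and 4.27 FPKM in KYSE410 normoxia. In KYSE150 it measured 34.9, 34.8 and 36.3 FPKM in hypoxia, against 31.3, 23.6 and 33.0 FPKM in normoxia. The groups were apart in both lines, lower in KYSE410 hypoxia and higher in KYSE150 hypoxia, and KYSE150 normoxia replicate 2 was the lowest of its group. In KYSE410 the log2 difference of -0.21 ± 0.06 was called (adjusted p = 0.0111), yet it lay at the median of all genes, and median-of-ratios scaling left -0.04 (adjusted p = 0.490), and it was 0.11 (adjusted p = 0.0917) after quantile normalization and -0.47 (adjusted p = 2.78e-04) after rescaling to a common sum. In KYSE150 the log2 difference of 0.27 ± 0.12 was not called (adjusted p = 0.0820). It was called at 0.13 (adjusted p = 0.0321) without normoxia replicate 2, at 0.36 (adjusted p = 0.0364) without normoxia replicate 3 and at 0.44 (adjusted p = 0.0106) with median-of-ratios scaling. Quantile normalization gave a call at 0.39 (adjusted p = 0.0324), and removal of a length and GC trend at 0.30 (adjusted p = 0.00136). The difference in response between lines was -0.49 (adjusted p = 0.00989), and -0.28 (adjusted p = 0.133) after quantile normalization.

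TGFBR2 encodes the type II receptor kinase that first binds the ligand, and lies on the plus strand of chromosome 3, 30606502 to 30694142. It measured 13.1, 13.1 and 13.8 FPKM in KYSE410 hypoxia, against 34.1, 35.1 and 36.0 FPKM in KYSE410 normoxia. The mean was lower by 2.63 times, with groups far apart (log2 difference -1.33 ± 0.04, adjusted p = 2.12e-08). In KYSE150 it measured 6.62, 6.12 and 7.35 FPKM in hypoxia, against 9.02, 7.23 and 8.91 FPKM in normoxia, and the groups overlapped through normoxia replicate 2. The KYSE150 log2 difference of -0.28 ± 0.11 was just called (adjusted p = 0.0482). Leaving out any 1 hypoxia library, or normoxia replicate 1 or 3, ended that call (adjusted p = 0.0509 to 0.161), as did the fit with no filter (adjusted p = 0.107), quantile normalization (-0.16, adjusted p = 0.175), rescaling to a common sum (adjusted p = 0.121) and median-of-ratios scaling (-0.13, adjusted p = 0.288), while without normoxia replicate 2 the difference was -0.38 (adjusted p = 0.00291). The fall was larger in KYSE410 by 1.05 on the log2 scale (difference in response -1.05 ± 0.12, adjusted p = 1.08e-05). Within each library, TGFBR2 over TGFBR1 was 3.50 ± 0.0784 in KYSE410 hypoxia, against 7.69 ± 0.658 in KYSE410 normoxia, and 0.189 ± 0.0132 in KYSE150 hypoxia, against 0.288 ± 0.0181 in KYSE150 normoxia (SD, n = 3 each). The type II receptor gene was thus the more abundant by FPKM in KYSE410 and the type I receptor gene in KYSE150, at both oxygen levels, and the ratio was lower in hypoxia in every library of both lines.

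SMAD3 encodes a receptor-regulated SMAD that carries TGF-beta and activin signals to DNA. It measured 17.3, 17.7 and 16.4 FPKM in KYSE410 hypoxia, against 16.5, 16.4 and 15.4 FPKM in KYSE410 normoxia. These groups overlapped, and the log2 difference of 0.08 ± 0.05 was not called (adjusted p = 0.126). Its direction rested on scaling. It was called higher at 0.28 (adjusted p = 4.75e-04) after the median of ratios and at 0.29 (adjusted p = 6.17e-04) after quantile normalization. Removal of a length and GC trend gave 0.27 (adjusted p = 5.74e-04). Only after rescaling to a common sum was it called lower, at -0.15 (adjusted p = 0.0273). In KYSE150 SMAD3 measured 8.73, 8.17 and 8.03 FPKM in hypoxia, against 4.06, 3.48 and 4.43 FPKM in normoxia, with every hypoxia library above every normoxia library. The KYSE150 mean was 2.08 times as high in hypoxia (log2 difference 0.90 ± 0.10, adjusted p = 1.16e-04). The response was smaller in KYSE410 (difference in response -0.82 ± 0.10, adjusted p = 3.13e-05).

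SMAD6 and SMAD7 are the inhibitory SMADs: SMAD7 acts on the TGF-beta type I receptor, and SMAD6 is best known for curbing the bone morphogenetic protein (BMP) branch. Both genes were lower in KYSE150 hypoxia, and SMAD7 was higher in KYSE410 hypoxia. SMAD7, on chromosome 18 from 48919853 to 48952052 on the minus strand, measured 3.29, 2.51 and 3.17 FPKM in KYSE410 hypoxia, against 2.13, 2.04 and 1.84 FPKM in KYSE410 normoxia. In KYSE150 it measured 3.92, 4.46 and 3.87 FPKM in hypoxia, against 6.26, 6.63 and 7.34 FPKM in normoxia. The groups were apart in both lines and in opposite order. The mean was 1.49 times as high in KYSE410 hypoxia (log2 difference 0.40 ± 0.09, adjusted p = 0.00300) and lower by 1.65 times in KYSE150 hypoxia (-0.61 ± 0.09, adjusted p = 7.52e-04). The KYSE410 difference was 0.69 (adjusted p = 1.03e-04) after quantile normalization and 0.28 (adjusted p = 0.0406) after rescaling to a common sum. Between the lines the response differed by 1.01 ± 0.13 (adjusted p = 3.32e-05).

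SMAD6 measured 1.91, 1.82 and 1.53 FPKM in KYSE150 hypoxia, against 5.05, 4.73 and 5.36 FPKM in KYSE150 normoxia. The mean was lower by 2.88 times with groups apart (log2 difference -1.14 ± 0.09, adjusted p = 3.50e-05). In KYSE410 it was under 1 FPKM throughout and outside the main test, at 0.506, 0.584 and 0.450 FPKM in hypoxia, against 0.243, 0.277 and 0.214 FPKM in normoxia. Those groups were apart too, in the opposite order from KYSE150, and without the filter the log2 difference was 0.28 ± 0.05 (adjusted p = 0.00523). Between the lines the response differed by 1.42 ± 0.10 (adjusted p = 4.91e-07) and by 2.31 with a pseudocount of 0.1. SMAD6 entered that joint fit through KYSE150, and with no filter the adjusted p was 5.11e-06. Set against SMAD3 within each library, SMAD7 stood at a ratio of 0.175 ± 0.0289 in KYSE410 hypoxia, against 0.124 ± 0.00502 in KYSE410 normoxia, and at 0.492 ± 0.0495 in KYSE150 hypoxia, against 1.70 ± 0.186 in KYSE150 normoxia. SMAD7 thus exceeded SMAD3 by FPKM in KYSE150 normoxia and in no other group.

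**Figure D2:**
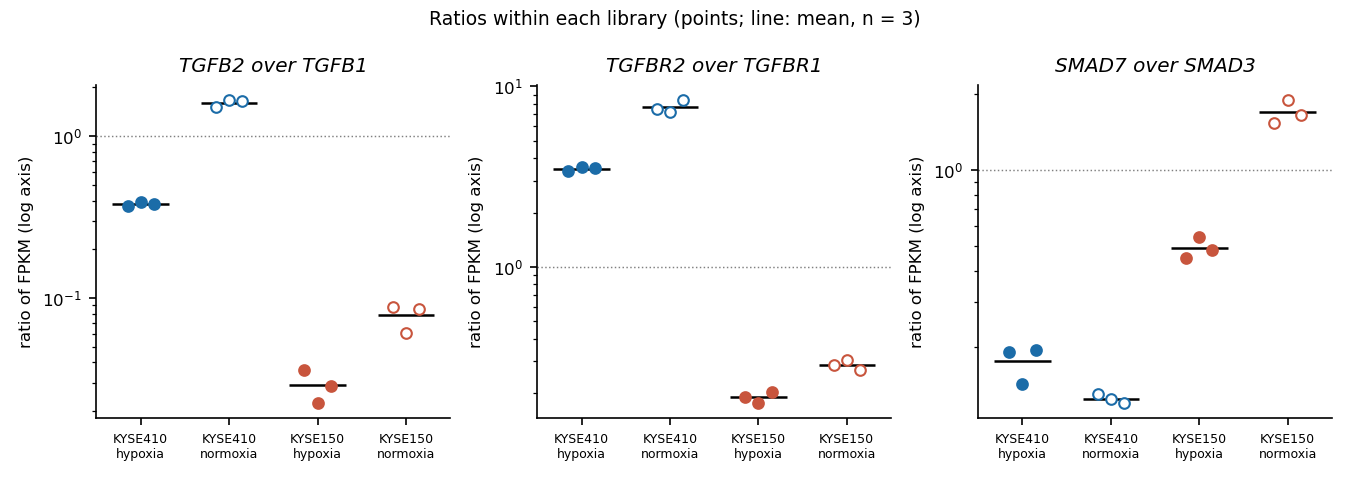
Ratio of FPKM of a pair of genes within each library (y axis, log scale), by line and oxygen level on the x axis. Points are libraries, the line is the mean of 3, and the dotted line marks equal FPKM. TGFB2 over TGFB1 lies under that line in KYSE410 hypoxia (0.380) and over it in KYSE410 normoxia (1.61), and SMAD7 over SMAD3 lies over it only in KYSE150 normoxia (1.70).

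The receptor and SMAD promoters are shown for TGFBR2, which had the most negative log2 difference of the receptor pair in both lines, and for SMAD6 and SMAD3, which lie in this order on the plus strand of chromosome 15 (66702228 to 66782848 and 67063763 to 67195195) and went in opposite directions in KYSE150. Windows and capitals are as for the ligands: TGFBR2 is chr3:30606106-30606355, plus strand, SMAD6 is chr15:66701986-66702235, plus strand and SMAD3 is chr15:67065352-67065601, plus strand.
TGFBR2: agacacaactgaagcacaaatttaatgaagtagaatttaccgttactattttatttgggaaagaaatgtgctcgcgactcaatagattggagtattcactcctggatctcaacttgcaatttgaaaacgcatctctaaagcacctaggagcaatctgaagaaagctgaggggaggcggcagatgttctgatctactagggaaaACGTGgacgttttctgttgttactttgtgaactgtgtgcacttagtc
SMAD6: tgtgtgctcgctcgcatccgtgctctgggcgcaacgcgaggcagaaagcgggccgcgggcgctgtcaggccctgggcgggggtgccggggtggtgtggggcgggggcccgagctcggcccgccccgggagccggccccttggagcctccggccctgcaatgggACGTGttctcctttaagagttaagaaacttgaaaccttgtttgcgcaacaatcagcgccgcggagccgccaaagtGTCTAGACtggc
SMAD3: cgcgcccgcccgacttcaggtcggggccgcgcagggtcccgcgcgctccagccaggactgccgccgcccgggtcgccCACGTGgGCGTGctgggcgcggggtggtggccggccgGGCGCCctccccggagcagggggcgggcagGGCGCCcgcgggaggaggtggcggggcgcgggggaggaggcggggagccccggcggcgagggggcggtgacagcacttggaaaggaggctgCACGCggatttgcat
SMAD6 holds the palindrome GTCTAGAC at -12, a motif found in 48 of the 27305 windows, and ACGTG at -87. TGFBR2 holds ACGTG at -47. SMAD3 holds CACGTG, which counts as ACGTG on each strand, at -173, GCGTG at -166 and, on the other strand, at -15, and GGCGCC at -136 and -106. Among the windows not printed, TGFBR1 has GCGTG at -189 and -182 and GTCTG at -213, and TGFBI has GGCGCC at -111. The SMAD7 window, also not printed, has GTCTG on the other strand at -217 and -128. By their coordinates the SMAD3, TGFBR1 and SMAD7 windows, like that of INHBA, lie wholly inside the annotated spans of their genes.

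TGFBI encodes a secreted matrix protein that binds integrins and collagens and was found as a TGF-beta induced transcript. It lies on the plus strand of chromosome 5, 136028895 to 136063818. It measured 6.85, 6.76 and 7.41 FPKM in KYSE410 hypoxia, against 0.405, 0.392 and 1.10 FPKM in KYSE410 normoxia. The groups were far apart, normoxia replicate 3 was the highest of its group, and the gene passed the filter only through the hypoxia libraries. The mean was 11.1 times as high in hypoxia (log2 difference 2.32 ± 0.15, adjusted p = 1.34e-06), and with no filter the adjusted p was 1.56e-04. Without normoxia replicate 3 the mean was 17.6 times as high (log2 difference 2.52). In KYSE150 TGFBI measured 16.9, 17.6 and 15.9 FPKM in hypoxia, against 14.7, 16.2 and 14.3 FPKM in normoxia. These groups overlapped and the log2 difference of 0.15 ± 0.08 was not called (adjusted p = 0.136). It was called at 0.20 (adjusted p = 0.0147) without normoxia replicate 2 and at 0.31 (adjusted p = 0.0153) with median-of-ratios scaling. After quantile normalization it was called at 0.27 (adjusted p = 0.0158). KYSE410 exceeded KYSE150 in response by 2.17 ± 0.19 (adjusted p = 1.56e-06).

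**Figure D3:**
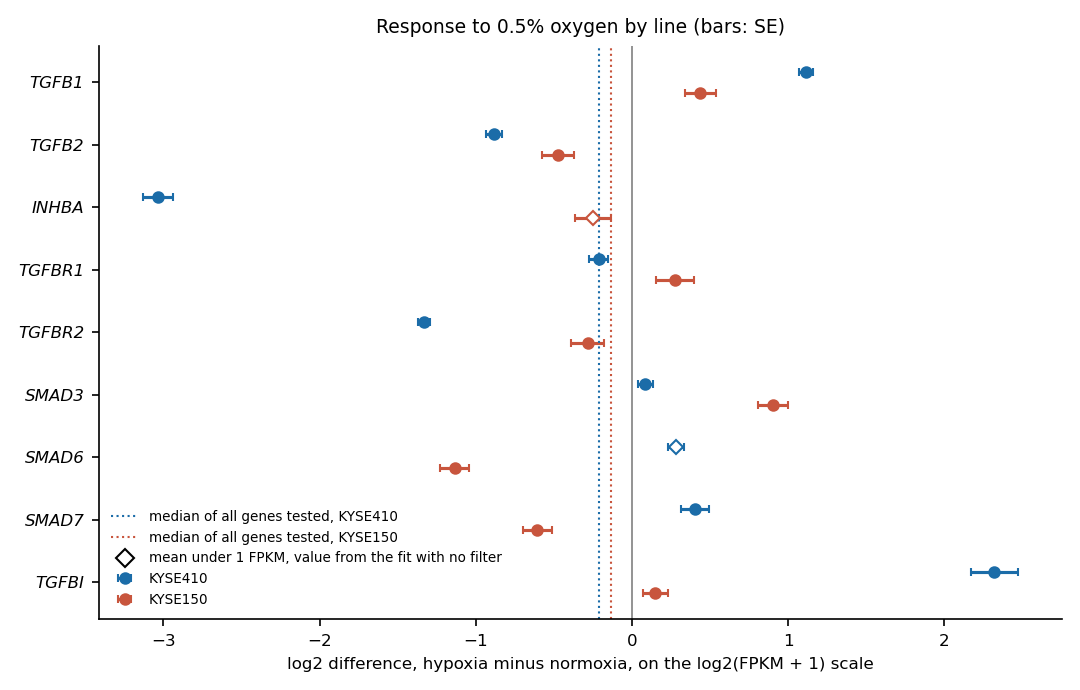
Log2 difference, hypoxia minus normoxia, on the log2(FPKM + 1) scale (x axis) for each gene in each line, with SE bars. Open diamonds are genes under 1 FPKM, taken from the fit with no filter, and dotted lines mark the medians of all genes tested. INHBA in KYSE410 (-3.04) and TGFBI in KYSE410 (2.32) lie farthest from 0, and SMAD7 lies on opposite sides of 0 in the lines (0.40 and -0.61).

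Set side by side, the responses of all 9 genes differed between the lines in the joint fit of 12 libraries, which called 63.3% of all genes tested. The difference was positive for 4, TGFB1, SMAD6, SMAD7 and TGFBI, against 27.3% of 12653 genes tested, and negative for 5, TGFB2, INHBA, TGFBR1, TGFBR2 and SMAD3, against 36%. Those of TGFB2 (pseudocount of 0.1) and TGFBR1 (quantile normalization) were each lost under 1 alternative. For TGFB1, TGFB2 and TGFBR2 the calls went the same way in both lines, and for SMAD7 they went opposite ways. The KYSE150 call of TGFBR2 (limma adjusted p = 0.0482) was lost under many alternatives. Shares of all genes called the same way or opposite ways in both lines were not counted. For TGFBR1, SMAD3 and TGFBI 1 line was called and the other was not. INHBA and SMAD6 were each tested in 1 line.

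The levels of most of these genes also separated the lines, with the reservation that the tables were deposited separately and FPKM is taken as comparable between them. Sample-sheet numbers also follow the line: 38 to 40 in KYSE410 and 50 to 52 in KYSE150 in normoxia, and 56 to 58 and 53 to 55 in hypoxia. Line and library set therefore cannot be told apart, with the wider gap in numbers in normoxia. In hypoxia all 9 differed between KYSE410 and KYSE150, against 80.2% of genes called, with 5 higher in KYSE410, against 36.6%, and 4 lower, against 43.6%. In normoxia 8 of 9 differed, against 79.2% called, with 4 higher in KYSE410, against 40.4%, and 4 lower, against 38.8%. Groups were apart for 85.7% of all genes in hypoxia and for 79% in normoxia. TGFB2 averaged 22.3 times as high in KYSE410 as in KYSE150 in hypoxia (log2 difference 3.29 ± 0.08) and 21.8 times as high in normoxia (3.70 ± 0.08). INHBA had its highest mean in KYSE410 normoxia, 16.4 ± 2.30 FPKM, and the log2 difference between lines was 0.94 ± 0.12 in hypoxia and 3.72 ± 0.12 in normoxia. In hypoxia it was 2.62 with a pseudocount of 0.1 and 1.53 after rescaling to a common sum. TGFBR1 was lower in KYSE410, by 9.28 times in hypoxia and 6.41 times in normoxia, and TGFBR2 was higher in KYSE410, by 1.99 times in hypoxia and 4.18 times in normoxia.

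TGFB1 did not differ detectably between the lines in normoxia (18.4 ± 0.668 FPKM in KYSE410 and 17.7 ± 2.37 FPKM in KYSE150, log2 difference 0.06 ± 0.08, adjusted p = 0.489), and its normoxia ranges overlapped. Without KYSE150 normoxia replicate 2 that difference was called at 0.16 (adjusted p = 0.00980), and without replicate 3 it was -0.01 (adjusted p = 0.916). It was also called after removal of a length and GC trend (0.37, adjusted p = 8.29e-06) and after rescaling to a common sum (0.17, adjusted p = 0.0277). In hypoxia TGFB1 was higher in KYSE410 by 1.69 times (0.74 ± 0.08, adjusted p = 2.01e-06). SMAD3 was higher in KYSE410, with log2 differences of 0.96 ± 0.07 in hypoxia and 1.78 ± 0.07 in normoxia. SMAD6, SMAD7 and TGFBI were lower in KYSE410, with log2 differences of -0.86, -0.35 and -1.15 in hypoxia and -2.28, -1.36 and -3.32 in normoxia. For SMAD6 they were -1.60 and -3.90 with a pseudocount of 0.1, and in hypoxia -0.50 after removal of a length and GC trend and -1.34 after rescaling to a common sum. The SMAD7 difference in hypoxia (adjusted p = 0.00323) was lost after quantile normalization (-0.14, adjusted p = 0.141) and after removal of a length and GC trend (-0.03, adjusted p = 0.735). On this log2 scale the line differences of INHBA, TGFBR2, SMAD3, SMAD6, SMAD7 and TGFBI were nearer to 0 in hypoxia than in normoxia. Those of TGFB1 and TGFBR1 were farther. That of TGFB2 was nearer on this scale, while its fold of means was not (22.3 times in hypoxia and 21.8 times in normoxia). How many of all genes did the same was not counted.

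**Figure D4:**
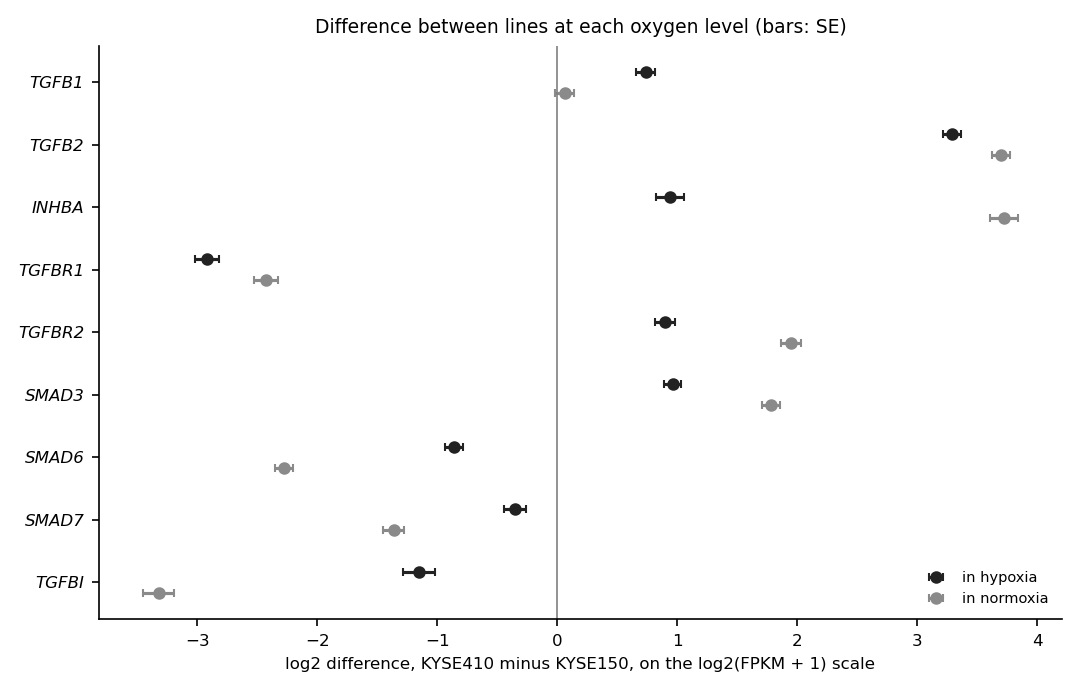
Log2 difference between lines, KYSE410 minus KYSE150, on the log2(FPKM + 1) scale (x axis) for each gene in hypoxia (black) and normoxia (grey), with SE bars. TGFB2 stays far to the right at both oxygen levels (3.29 and 3.70), INHBA lies at 0.94 in hypoxia and 3.72 in normoxia, and TGFB1 lies near 0 in normoxia only.

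In the order of means over the 4 groups, 22 of 27 neighbouring pairs had ranges apart, against 66.9% of such pairs over all 12653 genes. The ranges of neighbours overlapped for TGFB1 and TGFBR2 only at the low end (KYSE410 normoxia with KYSE150 normoxia for TGFB1, KYSE150 hypoxia with KYSE150 normoxia for TGFBR2), and for INHBA between the KYSE150 groups. For SMAD3 and TGFBI the highest pair of groups overlapped, the KYSE410 groups for SMAD3 and the KYSE150 groups for TGFBI. TGFB2, TGFBR1, SMAD6 and SMAD7 had 4 groups with ranges apart, as did 30.9% of all genes. The highest mean of TGFB1 and SMAD3 was in KYSE410 hypoxia, that of TGFB2, INHBA and TGFBR2 in KYSE410 normoxia, that of TGFBR1 and TGFBI in KYSE150 hypoxia, and that of SMAD6 and SMAD7 in KYSE150 normoxia.

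The remaining genes of the pathway were read from lists of activin ligands and antagonists, latency and release genes, receptors, SMADs, SMAD regulators, response genes and the BMP branch. In KYSE410 the SMAD corepressors and regulators were mostly lower in hypoxia: 13 of 14 tested genes fell, against 51.9% of all genes, USP15 did not pass, and the list median was -0.88 against -0.21 for all genes. In KYSE150 4 of the same 14 genes fell, against 38.8% of all genes, and 1 rose, against 23.5%, with a median of -0.09 against -0.13. There 2 fell and 2 rose after the median of ratios (29% and 31.7% of all genes) and after quantile normalization (31.9% and 30.9%). Of the 14, 6 fell without normoxia replicate 2, as did 5756 of 12678 genes tested. The difference in response was called negative for 10 of the 14, against 36% of all genes. TGIF2, a homeodomain corepressor, averaged 6.09 ± 0.0638 FPKM in KYSE410 hypoxia against 24.5 ± 0.753 FPKM in KYSE410 normoxia, a log2 difference of -1.85. NEDD4L, a ubiquitin ligase for activated SMADs, averaged 6.87 ± 0.211 FPKM against 24.7 ± 1.81 FPKM (-1.71), and SKIL, the corepressor SnoN, 3.25 ± 0.146 FPKM against 8.44 ± 0.216 FPKM (-1.15). In KYSE150 hypoxia the corepressor genes TGIF1 and SKIL fell by 1.15 and 0.61 on the log2 scale, and SMURF1, a ubiquitin ligase, rose by 0.29, a call lost after rescaling to a common sum (adjusted p = 0.0800) and with no filter (adjusted p = 0.0683). In KYSE410, from 11 to 14 of these genes were called lower under the other scalings and with a length and GC trend removed. Of all genes, 42.9% were called lower after the median of ratios and 41.4% after quantile normalization. The counts were 8304 of 14087 after rescaling to a common sum and 5914 of 11256 with that trend removed. TGIF2 shares 308 exonic bases with a readthrough gene, and SMURF1 shares 735 with TRRAP on the other strand.

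SMAD proteins other than the 3 above also fell in KYSE410 hypoxia, where SMAD1, SMAD2, SMAD4 and SMAD5 were all called lower, against 51.9% of all genes. Of the 4, 2 were after quantile normalization, against 41.4% of all genes. With a length and GC trend removed 2 were, as were 5914 of 11256 genes tested. SMAD4, the shared partner of the receptor-regulated SMADs, averaged 0.992 FPKM in KYSE410 hypoxia against 1.43 FPKM in KYSE410 normoxia and reached the filter only through normoxia. SMAD5, a BMP-branch SMAD, averaged 10.9 ± 0.221 FPKM in KYSE410 hypoxia against 16.4 ± 0.309 FPKM in KYSE410 normoxia. SMAD2, the partner of SMAD3 in TGF-beta signalling, averaged 6.66 ± 1.14 FPKM against 9.87 ± 0.837 FPKM, a log2 difference of -0.51 that became -0.19 (adjusted p = 0.148) after quantile normalization. In KYSE150 1 of 4 was called, SMAD1, which was lower, against 38.8% of all genes. There 3 of 4 were called lower without normoxia replicate 2, as were 5756 of 12678 genes tested. Of the receptors other than TGFBR1 and TGFBR2, the 4 tested in KYSE410, ACVR1, ACVR1B, ACVR2A and ACVR2B, were all called lower, against 51.9% of all genes. Of the 4, 1 was after quantile normalization, against 41.4% of all genes, and 2 were after the median of ratios, against 42.9%. ACVR2A, at 0.975 FPKM in KYSE410 hypoxia against 1.67 FPKM in KYSE410 normoxia, reached the filter only through normoxia. In KYSE150 2 of 6 were called, and both fell, against 38.8% of all genes: ENG, the coreceptor endoglin, averaged 8.74 ± 0.613 FPKM in hypoxia against 19.1 ± 0.189 FPKM in normoxia, and BAMBI, a decoy receptor, 7.16 ± 0.359 FPKM against 10.7 ± 1.79 FPKM. TGFBR3, the betaglycan gene, averaged 10.4 ± 0.454 FPKM in KYSE150 hypoxia and 9.31 ± 2.49 FPKM in KYSE150 normoxia, which did not pass (adjusted p = 0.413), and 0.305 FPKM over the KYSE410 libraries.

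In the activin branch 3 of 11 listed genes in KYSE410 and 6 of 12 in KYSE150 passed the filter. In KYSE410 FSTL3 and INHA rose, against 31.2% of all genes, and GDF11 fell, against 51.9%. The GDF11 call was lost after the median of ratios, after quantile normalization and after removal of a length and GC trend (adjusted p = 0.0913, 0.455 and 0.686). INHA, at 1.57 FPKM in KYSE410 hypoxia against 0.881 FPKM in KYSE410 normoxia, reached the filter only through hypoxia, and its call was lost with no filter (adjusted p = 0.0833), after rescaling to a common sum (adjusted p = 0.0805) and after removal of that trend (adjusted p = 0.212). FSTL3, a secreted activin antagonist, averaged 26.2 ± 1.21 FPKM in KYSE410 hypoxia against 13.0 ± 1.28 FPKM in KYSE410 normoxia (log2 difference 0.96, adjusted p = 2.69e-06). In KYSE150 FSTL1 and FSTL3 rose, against 23.5% of all genes, and INHBE, FST, INHBB and GDF11 fell, against 38.8%. INHBE, which encodes the beta E subunit, averaged 1.89 ± 0.294 FPKM in KYSE150 hypoxia against 20.0 ± 1.12 FPKM in KYSE150 normoxia (log2 difference -2.86, adjusted p = 7.67e-07). FST, encoding the antagonist follistatin, averaged 10.7 ± 0.188 FPKM against 21.8 ± 2.28 FPKM (-0.96). Of the genes for latency and release of TGF-beta, 3 rose and 4 fell of 7 in KYSE410, near the 31.2% and 51.9% of all genes. THBS1, whose product can activate latent TGF-beta, averaged 39.3 ± 1.45 FPKM in KYSE410 hypoxia against 118 ± 9.12 FPKM in KYSE410 normoxia, and FURIN, the convertase that cleaves the propeptide, 6.78 ± 0.384 FPKM against 12.02 ± 0.109 FPKM. LTBP4, a latent TGF-beta binding protein, rose by 0.82 on the log2 scale. In KYSE150 1 of 7 was called, THBS1, at 1.57 ± 0.435 FPKM in hypoxia against 4.34 ± 0.636 FPKM in normoxia, where 38.8% of all genes fell. After the median of ratios 2 of the 7 rose, against 31.7% of all genes, and 1 fell, against 29%. After removal of a length and GC trend 3 fell, as did 5189 of 11828 genes tested.

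Genes known to respond to TGF-beta went in both directions in both lines. In KYSE410 hypoxia 9 of 20 rose, against 31.2% of all genes, and 9 fell, against 51.9%, with a list median of 0.05 against -0.21 for all genes. In KYSE150 hypoxia 9 of 18 rose, against 23.5%, and 6 fell, against 38.8%, with a median of 0.28 against -0.13. TAGLN, an actin-binding protein gene that reached the filter only through KYSE150 hypoxia, was among those that rose, and without it 8 of 17 rose with a median of 0.15. BHLHE40, a transcriptional repressor that hypoxia also induces, averaged 81.4 ± 2.80 FPKM in KYSE410 hypoxia against 5.95 ± 0.531 FPKM in KYSE410 normoxia, and 167 ± 18.7 FPKM in KYSE150 hypoxia against 18.1 ± 0.770 FPKM in KYSE150 normoxia. IER3, an immediate early gene, averaged 735 ± 21.8 FPKM in KYSE410 hypoxia against 74.8 ± 4.85 FPKM in KYSE410 normoxia (log2 difference 3.28), and it shares 359 exonic bases with an antisense gene. COL7A1, a type VII collagen gene, averaged 9.59 ± 0.707 FPKM against 1.90 ± 0.173 FPKM in the same groups, and fell by 0.36 on the log2 scale in KYSE150 hypoxia, with a difference in response of 2.23 (adjusted p = 7.16e-09). The cell cycle inhibitor gene CDKN2B, another classic response gene, fell by 1.89 in KYSE410 and by 1.14 in KYSE150 on the same scale. CCN2, a matricellular protein gene, fell by 1.77 and 1.66. Against these, the cell cycle inhibitor gene CDKN1A of the same list rose by 0.48 in KYSE410 and by 1.24 in KYSE150. JUNB, also on the list, rose by 1.62 and 1.27. CDKN2B, CCN2, CDKN1A, JUNB and COL7A1 in KYSE150 were added after their values were seen.

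In the BMP branch, 1 of 5 tested genes rose and 3 fell in KYSE410, against 31.2% and 51.9% of all genes, and 1 of 7 rose and 3 fell in KYSE150, against 23.5% and 38.8%. The gene that rose in KYSE410 was BMP7, a ligand, at 1.55 FPKM in hypoxia against 0.576 FPKM in normoxia, which reached the filter only through hypoxia. NOG, the BMP antagonist noggin, averaged 24.6 ± 1.84 FPKM in KYSE150 hypoxia against 6.65 ± 0.747 FPKM in KYSE150 normoxia (log2 difference 1.74, adjusted p = 5.41e-06). ID3, a target of BMP signalling, averaged 28.8 ± 2.89 FPKM in KYSE150 hypoxia against 74.7 ± 11.8 FPKM in KYSE150 normoxia (-1.34), and BMP2, a ligand, fell by 0.41 on the log2 scale. In KYSE410 hypoxia ID1, a second such target, averaged 3.48 ± 1.02 FPKM against 8.53 ± 0.700 FPKM in normoxia (-1.11). ID3 fell by 0.29 there, and its log2 difference was -0.09 (adjusted p = 0.0721) with median-of-ratios scaling.

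**Figure D5:**
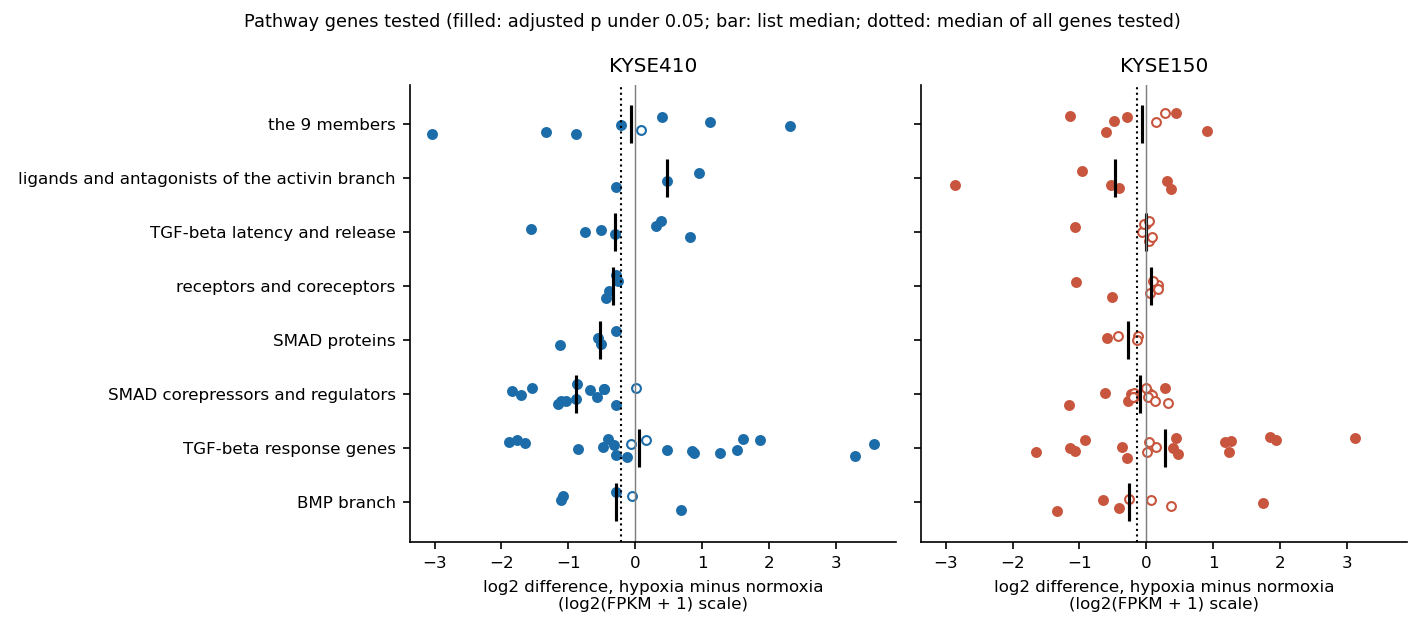
Log2 difference, hypoxia minus normoxia, on the log2(FPKM + 1) scale (x axis) for the tested genes of each list in KYSE410 (left) and KYSE150 (right). Points are genes, filled where called, black bars are list medians and the dotted line is the median of all genes tested. The SMAD corepressors and regulators lie mostly left of 0 in KYSE410 (median -0.88) and around 0 in KYSE150 (median -0.09).

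For each of the 9 genes, the gene with the nearest profile was taken among 8181 genes averaging 5 FPKM or more, by the root-mean-square difference of log2(FPKM + 1) over the 12 libraries after each gene was centred on its mean. TGFB2 was nearest to TGFA, which encodes the epidermal growth factor receptor ligand TGF-alpha, at 0.129. TGFA averaged 11.98 FPKM in KYSE410 hypoxia against 25.0 FPKM in KYSE410 normoxia, and 0.242 FPKM in KYSE150 hypoxia against 0.664 FPKM in KYSE150 normoxia. SMAD7 was nearest to TFDP1 (0.0928), TGFBR1 to COL4A2 (0.109), TGFBR2 to ARHGEF28 (0.113), SMAD3 to STK17B (0.134) and SMAD6 to SLC41A3 (0.188). INHBA and TGFBI had no close neighbour by this measure, with PHLDA1 at 0.280 and PCLAF at 0.332. TGFB1 was nearest to RPL41 (0.0644), a ribosomal protein gene whose near-identical copies make its own values uncertain. All 12 libraries share the 4 groups, so a small distance mainly records the same order of the 4 group means.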

How the data were processed

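Messenger RNA was captured on beads from total RNA before library preparation, per the labels' protocols. Per the submitters' processing notes, bcl2fastq 2.20, fastp 0.22.0, HISAT2 2.2.1 and hg38 were used; their roles, the quantifier, the annotation and strandedness were not given in the sources used here. For each line the authors deposited 1 table with a column per library, whose FPKM unit was inferred from the values: FPKM times transcript length summed to 0.899 to 1.003 of the total this unit implies. Columns summed to 351500 to 425094, and 22787 to 24667 genes were above 0. In KYSE410 the sums followed oxygen, at 415926 to 425094 in hypoxia and 351500 to 356994 in normoxia. In KYSE150 they overlapped, at 377909 to 382990 in hypoxia and 366156 to 413967 in normoxia. Low values showed no steps of whole reads, so the depth is unknown and counting intervals cannot be given.

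Using R 4.3.3 and limma 3.58.1 with moderated variances that follow the mean, log2(FPKM + 1) was modelled for genes averaging 1 FPKM or more, within each line for oxygen (12054 genes in KYSE410, 12692 in KYSE150) and over all 12 libraries for the difference in response and the line differences (12653 genes). p-values were Benjamini-Hochberg adjusted over all genes tested and called under 0.05. The labels do not call the replicates separate cultures, so p-values rest on the spread between these libraries only, which may be technical. The fits were tested on simulated data. The members and lists were chosen with earlier results of these data known. The text names all 9 members, up to 3 called genes per list and line averaging 5 FPKM or more with groups apart, by size of log2 change, the nearest gene of each member, and markers; list genes named without being so chosen are given only to complete or qualify a count or were added after their values were seen. A gene that the rule takes is not reported here. Gene positions and overlaps came from GENCODE 29 on hg38, promoter sequences from RefSeq (GRCh38.p14). Tables and plots were made with matplotlib 3.10.9, pandas 2.3.3, numpy 2.4.6 and Python 3.11.15. Alternatives covered scaling, filters, the pseudocount, the mean trend, a replicate block, a length and GC trend, and leaving out each library.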

Additional observations from a re-analysis of the deposited data

Results flagged for a closer look

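The response to oxygen differed between the lines for each of the 9 genes by the interaction term of the joint fit (limma, adjusted p at most 0.00989), a contrast that called 63.3% of all 12653 genes tested. On the log2(FPKM + 1) scale, the response in KYSE410 minus that in KYSE150 was 0.68 for TGFB1, -0.41 for TGFB2, -2.79 for INHBA, -0.49 for TGFBR1, -1.05 for TGFBR2, -0.82 for SMAD3, 1.42 for SMAD6, 1.01 for SMAD7 and 2.17 for TGFBI. Hypoxia and normoxia groups were apart in the same direction in both lines for TGFB1 and TGFB2, and in opposite directions for TGFBR1, SMAD6 and SMAD7. Of these, TGFBR1 was not called in KYSE150 (limma adjusted p = 0.0820). It turned in KYSE410 after quantile normalization and after removal of a length and GC trend. The difference in response of TGFB2 was lost with a pseudocount of 0.1 (-0.04, adjusted p = 0.850) and that of TGFBR1 after quantile normalization (-0.28, adjusted p = 0.133). INHBA and SMAD6 entered the joint fit through 1 line only, and with no filter on low values their adjusted p was 2.31e-06 and 5.11e-06. In KYSE410 the sample-sheet sets follow oxygen, so a part of these differences cannot be told apart from the library set.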

How the results depend on the processing

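Of the oxygen calls, those of TGFB1, TGFB2 and SMAD7 in each line, of INHBA, TGFBR2 and TGFBI in KYSE410 and of SMAD3 and SMAD6 in KYSE150 held under every alternative in which the gene was tested; TGFB2 left the KYSE150 test under the median of ratios and without any 1 KYSE150 normoxia library, where its mean was under 1 FPKM. In KYSE150 the number of members called higher was 4 in place of 2 after the median of ratios and after quantile normalization. Of all genes 31.7% and 30.9% were higher there, in place of 23.5%. It was 2 to 4 when 1 library was left out, with 2454 to 3661 of all genes higher. The number called lower was 2 in place of 4 after the median of ratios and when genes had to average 5 FPKM or more. Of all genes 29% and 3253 of 8085 were lower there, in place of 38.8%. It was 2 to 3 when 1 library was left out, with 4169 to 5756 of all genes lower. The higher filter also tests fewer genes. With it 1 member was higher in KYSE410, as were 2707 of 7771 genes, and 2 had a positive difference in response, as did 2514 of 8181. In hypoxia and in normoxia 2 members each were lower in KYSE410 than in KYSE150, as were 3489 and 3208 of 8181 genes. For those line differences 6695 and 6608 genes were called in place of 10149 and 10019. Reversals were SMAD3 in KYSE410 after rescaling to a common sum (-0.15), TGFBR1 in KYSE410 after quantile normalization (0.11) and after removal of a length and GC trend (0.026), and TGFB1 between lines in normoxia without KYSE150 normoxia replicate 3 (-0.0092, against 0.16 without replicate 2); the cause was not tested. The median of ratios moved the median of all genes to -0.03 in KYSE410 and to 0.02 in KYSE150, with 4854 genes higher and 5160 lower in KYSE410 in place of 3763 and 6254, and 4013 and 3673 in KYSE150 in place of 2981 and 4925. Rescaling to a common sum gave 3111 higher and 8304 lower in KYSE410 and 2636 and 6410 for the difference in response, in place of 3453 and 4560. Same-numbered libraries showed no clear shared deviation (r of deviations across genes -0.045 to 0.020 in KYSE410 and -0.069 to 0.084 in KYSE150). Such values cannot settle whether same-numbered libraries came from the same culture. With the replicate block 9931 genes were called in KYSE410 and 7757 in KYSE150, in place of 10017 and 7906, and no call of a member changed. No count-based tool was applied to FPKM.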
